A study of Mus musculus with 6 samples.

Results

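The genes described here are 34 mouse genes of N-linked protein glycosylation, the pathway that tunicamycin blocks. Their accessible chromatin was taken as every region in or within 20 kb of their gene spans in the mm10 build, which gave 187 of the 82993 regions that at least 1 library called. The gene spans of the RefSeq annotation (GRCm38.p6) cover 21883 protein-coding genes, of which these 34 are a part. Accessibility was measured by ATAC-seq, in which a transposase cuts and tags open DNA, in haematopoietic stem cells of the bone marrow sorted as CD48-CD150+LSK cells (LSK cells lack lineage markers and carry Sca-1 and c-Kit), about 5000 cells per library. Both groups were wild-type mice of the strain C57BL/6J. One group had received tunicamycin intraperitoneally at 2 mg per kg (3 libraries), and the other had received DMSO, its solvent, by the same route (3 libraries). The labels used here state neither the age of the mice nor the time from injection to sorting. They also do not say whether the libraries of a group came from separate animals, so p-values reflect how much these libraries vary, which can be technical variation alone.

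N-linked glycosylation builds an oligosaccharide on the lipid dolichol in the membrane of the endoplasmic reticulum (ER) and moves it whole onto asparagine residues of proteins entering the ER. Assembly begins on the cytosolic face, where Dpagt1, the enzyme that tunicamycin inhibits, joins a phosphorylated N-acetylglucosamine to dolichyl phosphate, and it ends on the luminal face with mannoses and glucoses donated by dolichol-linked sugars. The oligosaccharyltransferase then transfers the glycan. Glucosidases and a mannosidase trim it while the protein folds, and a glucosyltransferase senses misfolding. When the transfer is blocked, unglycosylated proteins misfold and the ER stress response is triggered, and stem cells are known to be sensitive to that stress.

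The promoter sequences of these genes were searched for motifs and described by their base composition. RefSeq promoters (build GRCm38.p6, 250 bases before the start to 50 after it) were tabulated for 29 of the 34 genes, 30 promoters in all. Dpagt1, Alg2, Alg11, Ostc and Tusc3 had no entry. Below are the promoter of Alg12 at chr15:88819269-88819568 (minus strand), which held the only full ER stress element, those of Dad1 at chr14:54253880-54254179 (minus strand) and Ganab at chr19:8897807-8898106 (plus strand), which belonged to the most accessible starts, that of Dpm2 at chr2:32570608-32570907 (plus strand), the least accessible start called in all 6 libraries, and those of the 3 genes whose start was not called in all 6, Alg9 at chr9:50774975-50775274 (plus strand), Alg13 at chrX:144317716-144318015 (plus strand) and Alg6 at chr4:99715380-99715679 (plus strand). Each reads 5′ to 3′ on the gene's strand, and capitals mark exact matches on either strand to one of the motifs searched.
Alg12: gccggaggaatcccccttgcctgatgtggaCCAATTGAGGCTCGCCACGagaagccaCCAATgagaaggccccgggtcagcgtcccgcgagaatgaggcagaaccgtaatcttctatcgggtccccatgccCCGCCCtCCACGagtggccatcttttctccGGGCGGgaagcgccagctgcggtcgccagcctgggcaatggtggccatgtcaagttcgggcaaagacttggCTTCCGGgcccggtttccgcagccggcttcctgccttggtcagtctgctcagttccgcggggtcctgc
Dad1: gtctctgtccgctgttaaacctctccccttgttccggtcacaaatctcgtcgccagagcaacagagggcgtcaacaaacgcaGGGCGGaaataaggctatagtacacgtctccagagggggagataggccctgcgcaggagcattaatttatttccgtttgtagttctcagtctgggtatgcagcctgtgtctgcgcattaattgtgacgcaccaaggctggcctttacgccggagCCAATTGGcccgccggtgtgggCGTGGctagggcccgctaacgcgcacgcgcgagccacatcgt
Ganab: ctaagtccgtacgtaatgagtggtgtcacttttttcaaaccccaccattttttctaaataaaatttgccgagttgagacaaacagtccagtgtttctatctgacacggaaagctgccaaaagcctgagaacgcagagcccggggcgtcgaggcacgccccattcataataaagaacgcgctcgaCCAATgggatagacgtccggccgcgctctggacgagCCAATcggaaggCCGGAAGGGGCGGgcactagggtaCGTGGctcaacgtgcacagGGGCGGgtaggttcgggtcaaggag
Dpm2: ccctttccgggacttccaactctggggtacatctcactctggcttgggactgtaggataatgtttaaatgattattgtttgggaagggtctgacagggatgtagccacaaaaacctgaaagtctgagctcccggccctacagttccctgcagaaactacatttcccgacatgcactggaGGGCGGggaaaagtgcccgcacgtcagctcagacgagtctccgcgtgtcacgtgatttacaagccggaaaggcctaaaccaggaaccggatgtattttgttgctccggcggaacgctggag
Alg9: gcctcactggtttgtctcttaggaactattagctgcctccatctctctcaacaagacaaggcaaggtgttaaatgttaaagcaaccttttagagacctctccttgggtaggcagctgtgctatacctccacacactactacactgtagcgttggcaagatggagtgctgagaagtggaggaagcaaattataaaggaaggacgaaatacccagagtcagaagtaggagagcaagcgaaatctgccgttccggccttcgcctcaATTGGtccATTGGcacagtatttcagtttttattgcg
Alg13: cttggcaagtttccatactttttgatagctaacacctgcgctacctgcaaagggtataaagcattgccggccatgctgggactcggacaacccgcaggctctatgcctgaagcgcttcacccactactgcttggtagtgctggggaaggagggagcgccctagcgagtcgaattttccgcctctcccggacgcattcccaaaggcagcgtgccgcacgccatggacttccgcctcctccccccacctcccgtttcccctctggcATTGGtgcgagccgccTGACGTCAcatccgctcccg
Alg6: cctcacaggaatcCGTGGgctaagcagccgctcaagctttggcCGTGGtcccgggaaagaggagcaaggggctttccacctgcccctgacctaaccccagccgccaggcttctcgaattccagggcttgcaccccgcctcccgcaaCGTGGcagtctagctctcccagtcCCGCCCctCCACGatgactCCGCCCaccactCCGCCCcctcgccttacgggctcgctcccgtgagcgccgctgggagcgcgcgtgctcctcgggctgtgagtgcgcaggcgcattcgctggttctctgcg

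The motifs searched on both strands were the ER stress element (CCAAT and CCACG with 9 bases between), CCACG alone, the unfolded protein response element TGACGTGG, the ATF4-type site TGATGCAA, the cyclic AMP response element TGACGTCA, CCAAT alone, the GC box GGGCGG and the ETS-type site CCGGAAG. A full ER stress element contains both a CCAAT and a CCACG match. The full element was found in 1 of the 30 promoters, that of Alg12, in the upstream part of the printed sequence, against 0.119% of 32851 promoters in the whole table. TGACGTGG and TGATGCAA were found in 0 of the 30, against 0.676% and 0.895% of all promoters. TGACGTCA was found in the Alg13 promoter alone, against 1.79% of all. The shorter motifs were common: CCACG stood in 15 of the 30 promoters (32.8% of all), CCAAT in 16 (37.4% of all), GGGCGG in 21 (35.7% of all) and CCGGAAG in 8 (8.86% of all). The promoters were rich in G and C, with a median of 61.0% against 52.7% in the whole table, and held a median of 24 CpG dinucleotides per promoter against 7. That table covers 27025 genes, not only protein-coding ones, and includes promoters with no accessible region. No comparison with accessible promoters alone was made. A match describes letters and not binding. The Alg6 promoter, with no accessible region in any library, held 27 CpG and 68% G and C, while that of Alg9 held 7 CpG and 46.7% G and C. Over the 26 tabulated promoters whose start was called in all 6 libraries, the CpG count and the mean rank of the start had a Pearson r of 0.068 (n = 26 genes, all measured in the same 6 libraries).

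The libraries differed in how much chromatin they called. The tunicamycin libraries held 44952, 56865 and 47789 peaks and the DMSO libraries 62478, 38217 and 28501 peaks for replicates 1, 2 and 3, so the widest spread lay within the DMSO group. Read depth is not known from peak lists and absence of a call is not evidence of closed chromatin. The rank of a peak within its list is used here as its level. The rank is the percentile of the authors' deposited fold enrichment (peak signal over background) among all peaks of that list, called the list percentile. For the labelled cell type, 5 of 12 stem cell markers had a start called in all 6 libraries, among them Hlf, Mecom and Kit, and Ly6a, which encodes the sorted antigen Sca-1, had a start called in none. That is 41.7% of the markers, against 46.4% of all protein-coding genes, so the count by itself gives no support to the label. The starts of Pax5, Vpreb1, Elane, Ly6g, S100a8, Hba-a1 and Hbb-bt, which define B-lymphoid, neutrophil or erythroid cells, were called in 0 libraries. Over the whole lists, starts called in all 6 libraries numbered 1 of 7 for B cells, 2 of 6 for T cells, 1 of 8 for neutrophils and monocytes, 2 of 6 for erythroid cells, 4 of 6 for megakaryocytes and 2 of 7 for stroma and endothelium. Of the stem cell starts, 8 were called in each tunicamycin library and 6 to 10 in each DMSO library.

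The starts of N-glycosylation genes were accessible in nearly every library of both groups. A gene start counted as accessible where a region overlapped the interval of 1 kb to either side of it, or of either gene end for the 5 genes whose strand no table gave. Where several regions qualified, the one called in the most libraries was taken, and among equals the one of highest mean list percentile. Of the 34 genes, 31 had such a region called in all 6 libraries, against 46.4% of 21883 protein-coding genes. By tabulated start alone the number was 26 of 29, against 47.6% of 17491 genes. Per library, 33, 33 and 32 of the 34 starts were called after tunicamycin and 33, 32 and 32 after DMSO, so the number did not follow the group. The starts also ranked high within each list, with a median list percentile of 88.1, 91.9 and 91.5 in the tunicamycin libraries and 90.8, 87.9 and 86.8 in the DMSO libraries. Averaged over the 6 libraries, the median start of the 31 stood at 90.3, against 82.9 for the 10157 protein-coding genes with a start called in all 6.

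**Figure D1:**
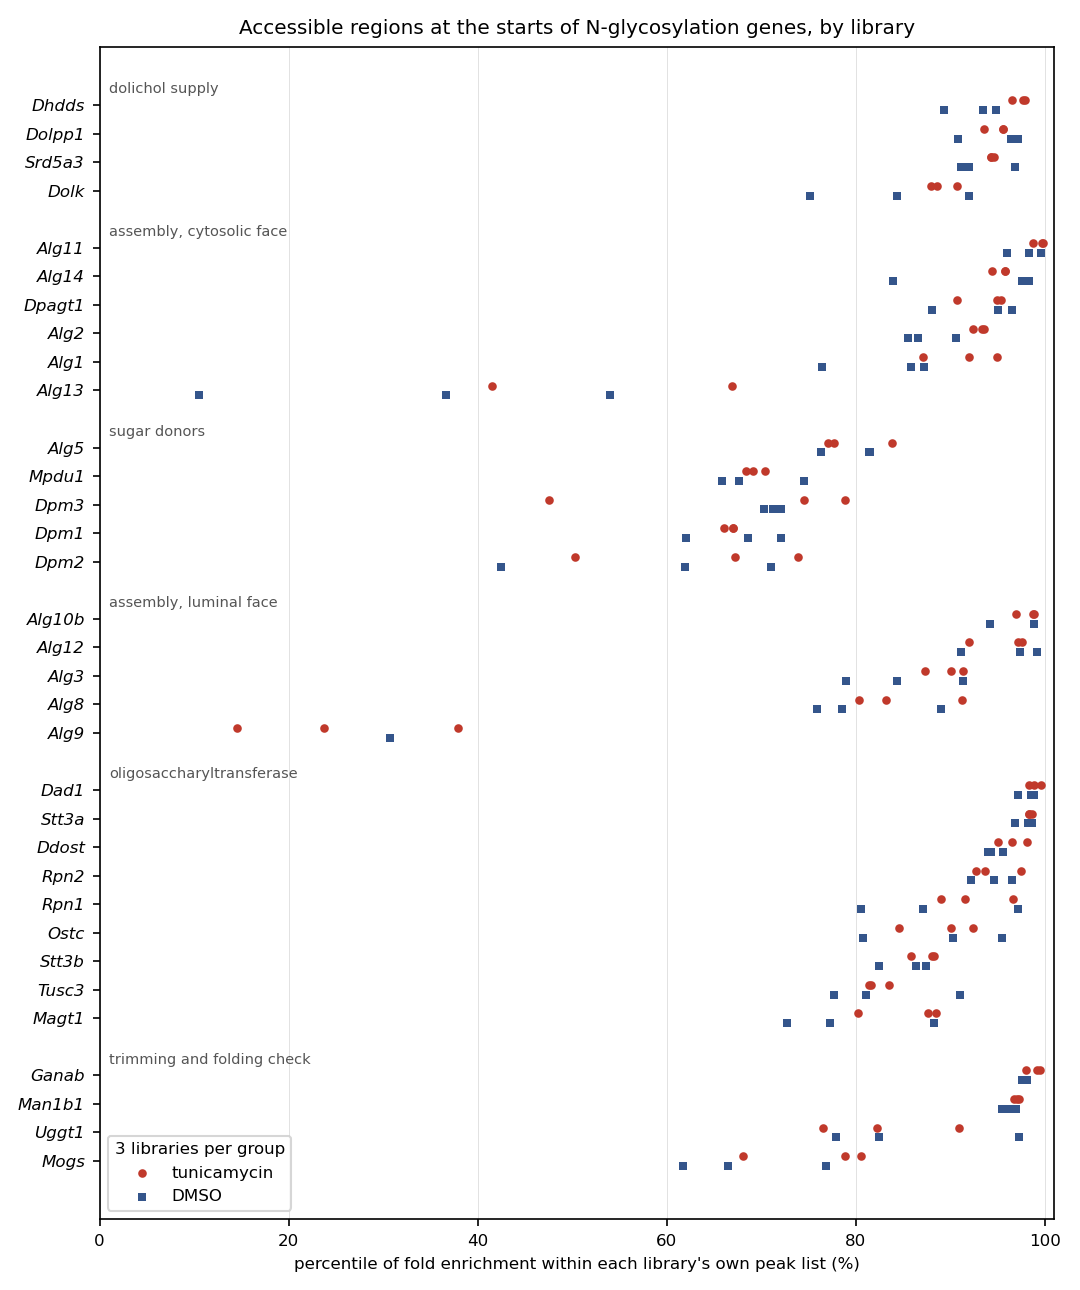
Percentile of the deposited fold enrichment at each gene start within each library's own peak list (x axis, %), with 1 point per library, circles for tunicamycin and squares for DMSO, and the genes grouped by role down the page. Most starts lie near the upper end in both groups, the dolichol-mannose and dolichol-glucose donor genes lie lower, Alg9 and Alg13 lack points for libraries that did not call them, and Alg6 is not drawn because 0 libraries called it. For Dpagt1, whose strand is not tabulated, the region outside the gene over H2ax is drawn.

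The genes that supply dolichol were all accessible at the start, with a median list percentile of 94.3 over the 4 genes. Dhdds, a subunit of the enzyme that makes the polyprenyl chain, stood at 97.9, 97.7 and 96.5 in the tunicamycin libraries and 93.5, 89.4 and 94.9 in the DMSO libraries. Its tunicamycin values lay above all its DMSO values on this scale, as did those of 7.42% of all regions called in all 6 libraries. Ranked among those shared regions only, the groups overlapped. There Dhdds stood at 95.5, 93.8 and 91.9 after tunicamycin and 81.2, 80.6 and 93.0 after DMSO. Srd5a3, needed to turn polyprenol into dolichol, and Dolpp1, a phosphatase that recycles the carrier, had mean list percentiles of 93.9 and 94.8. Dolk, the dolichol kinase, had 86.5 and shares its accessible region with the start of Nup188, a nuclear pore gene.

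Assembly on the cytosolic face begins with Dpagt1, whose chromatin held 6 regions, 5 of them called in all 6 libraries. The table gives no strand for Dpagt1 (chr9:44325857-44333895), so the region at each end is described. The region at chr9:44326368-44327301, inside the gene near its lower-numbered end, had a fold enrichment of 7.59, 10.0 and 10.1 after tunicamycin and 10.8, 10.2 and 5.98 after DMSO. The region at chr9:44334242-44335471, 0.347 kb beyond the other end and overlapping the histone gene H2ax, had 11.4, 10.3 and 11.5 after tunicamycin and 10.6, 11.5 and 10.2 after DMSO. The groups overlapped at both ends of the gene of the enzyme that tunicamycin inhibits. Further regions lay outside the gene. One 4.89 kb out over C2cd2l had a fold of 8.02, 10.3 and 7.63 after tunicamycin and 8.74, 5.77 and 7.04 after DMSO. Another over C2cd2l, 14.1 kb out, had 5.21 and 4.49 in tunicamycin 2 and 3 and 4.43 and 4.97 in DMSO 1 and 2, with no call in the other libraries. The groups overlapped at both. The region 19.7 kb out over Hinfp was among the most accessible regions of every list, at a list percentile of 99.8, 99.7 and 99.8 after tunicamycin and 99.6, 99.7 and 99.2 after DMSO.

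Among the other cytosolic transferases, Alg11, which adds the last mannoses on that face, had the highest start of all 31, at a mean list percentile of 98.7. Alg11 has no tabulated strand, and its region also overlaps the start of Atp7b, a copper transporter gene. Alg14, which anchors the enzyme that adds the second N-acetylglucosamine, stood at 94.3, and the mannosyltransferases Alg2 and Alg1 stood at 90.3 and 87.2. The Alg2 region is shared with the start of Sec61b. Alg13, the catalytic partner of Alg14, differed from these other cytosolic genes of the pathway. Its only region, chrX:144317834-144318979, had a fold of 5.03 and 6.75 in tunicamycin libraries 1 and 2 and no call in tunicamycin 3, and 5.15, 5.66 and 3.74 in the DMSO libraries. The absent call was thus in a tunicamycin library and the lowest fold in the shortest DMSO list.

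By group median, the sugar donor genes ranked lowest among the starts called in all 6 libraries. Dpm1, Dpm2 and Dpm3 encode the catalytic, regulatory and stabilising subunits of dolichol-phosphate-mannose synthase, Alg5 makes dolichol-phosphate-glucose, and Mpdu1 is needed to use both donors. Their median list percentile per library was 68.4, 73.9 and 67.1 after tunicamycin and 71.0, 72.1 and 70.3 after DMSO. In every library this was the lowest of the 6 role groups, the library medians of the others running from 86.6 to 96.6, and no test was made of that order. Dpm2 was the lowest of the 31, at 67.2, 73.9 and 50.3 after tunicamycin and 71.0, 61.9 and 42.5 after DMSO. Dpm1, Dpm3, Mpdu1 and Alg5 had means of 67.1, 69.1, 69.3 and 79.7. The Dpm1 region is shared with the start of Mocs3, and the Alg5 region with that of Exosc8. Dpm1 spanned 66.1 to 67.1 after tunicamycin and 62.0 to 72.1 after DMSO. Over the 6 libraries its values lay within the spans of Dpm2 (42.5 to 73.9) and Dpm3 (47.6 to 78.9), so it did not separate from either. Alg5 had the highest mean of these genes, and its values of 76.3 to 83.8 all lay above those of Mpdu1, 65.9 to 74.5. They overlapped those of Dpm3, which reached 78.9 in tunicamycin 1.

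On the luminal face the mannosyltransferases are Alg3, Alg9 and Alg12 and the glucosyltransferases Alg6, Alg8 and Alg10b. Alg10b and Alg12 had mean list percentiles of 97.7 and 95.7, and Alg3 and Alg8 had 87.2 and 83.0. The region that carried the Alg12 start, chr15:88819020-88819922, is shared with the start of Creld2, an ER protein gene, and contains the ER stress element printed above. Its fold was 12.2, 12.9 and 10.6 after tunicamycin and 11.4, 11.8 and 12.6 after DMSO, so the groups overlapped. The Alg3 region called in all 6 libraries lay at the start of its neighbour Eef1akmt4, with its summit a median of -774.5 bp from the Alg3 start. A smaller region over the Alg3 start itself, chr16:20610482-20611033, had a fold of 3.83, 3.91 and 4.98 after tunicamycin and 4.89 in DMSO 1, with no call in DMSO 2 and 3.

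Alg9 and Alg6 were the luminal genes without a start called in all 6 libraries. The region over the Alg9 start, chr9:50775070-50775768, had a fold of 4.28, 3.77 and 4.95 after tunicamycin and 4.85 in DMSO 1, with no call in DMSO 2 and 3. These are low ranks, at list percentiles of 23.7, 14.6 and 37.9 after tunicamycin and 30.7 in DMSO 1, and the DMSO libraries without a call were those with the shortest lists, a relation whose part in the result was not tested. A second region, chr9:50773750-50774457, 0.768 kb outside the gene, was called in tunicamycin 2 and in DMSO 1 and 2. Alg9 still had the most regions of any of the 34 genes, 14 within 20 kb, 3 of them called in all 6 libraries. Alg6 (chr4:99715596-99763460) had 0 regions within 20 kb in any library.

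The oligosaccharyltransferase genes were accessible at the start in all 6 libraries without exception, 9 of 9, with a median list percentile of 90.3. Stt3a, the catalytic subunit that acts during translocation, stood at 98.4, 98.7 and 98.3 after tunicamycin and 96.9, 98.7 and 98.2 after DMSO. Stt3b, the catalytic subunit for sites that were skipped, stood at 88.1, 85.8 and 88.3 after tunicamycin and 82.5, 86.3 and 87.4 after DMSO. Stt3a lay above Stt3b in each of the 6 libraries, and for both genes the groups overlapped. Of the subunits common to both forms, Dad1 had a mean of 98.6, Ddost 95.6, Rpn2 94.5 and Rpn1 90.3. The Dad1 region is shared with the start of Abhd4, and the Rpn2 region with that of Mroh8. Ostc, which belongs to the Stt3a form, had 88.9, and Tusc3 and Magt1, the alternative oxidoreductase subunits of the Stt3b form, had 82.7 and 82.4.

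The 4 genes that trim the glycan or check folding spanned most of the range. Ganab, the catalytic subunit of glucosidase II, had a mean list percentile of 98.4 and Man1b1, a mannosidase that marks misfolded glycoproteins for degradation, had 96.6. Uggt1, the glucosyltransferase that senses misfolding, had 84.6, and Mogs, glucosidase I, had 72.1. The Uggt1 start had a fold of 8.51, 7.81 and 10.3 after tunicamycin and 13.7, 8.23 and 7.25 after DMSO, with DMSO 1 the highest and DMSO 3 the lowest of the 6.

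Summits, the base of highest signal in each peak, lay just before the gene starts. Of the 26 genes with a tabulated start called in all 6 libraries, 22 had their median summit before the start and 4 after it, with a median over genes of -45.3 bp, and 23 lay within 160 bp. In 13 genes the 6 libraries placed the summit within 50 bp of each other. Dpm2, the lowest-ranked start, had closely placed summits, at -19, -18 and -19 bp after tunicamycin and -19, -20 and -20 bp after DMSO. Srd5a3 stood apart with summits downstream of its start, at 296, 315 and 304 bp after tunicamycin and 304, 324 and 313 bp after DMSO, an offset that every library showed.

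**Figure D2:**
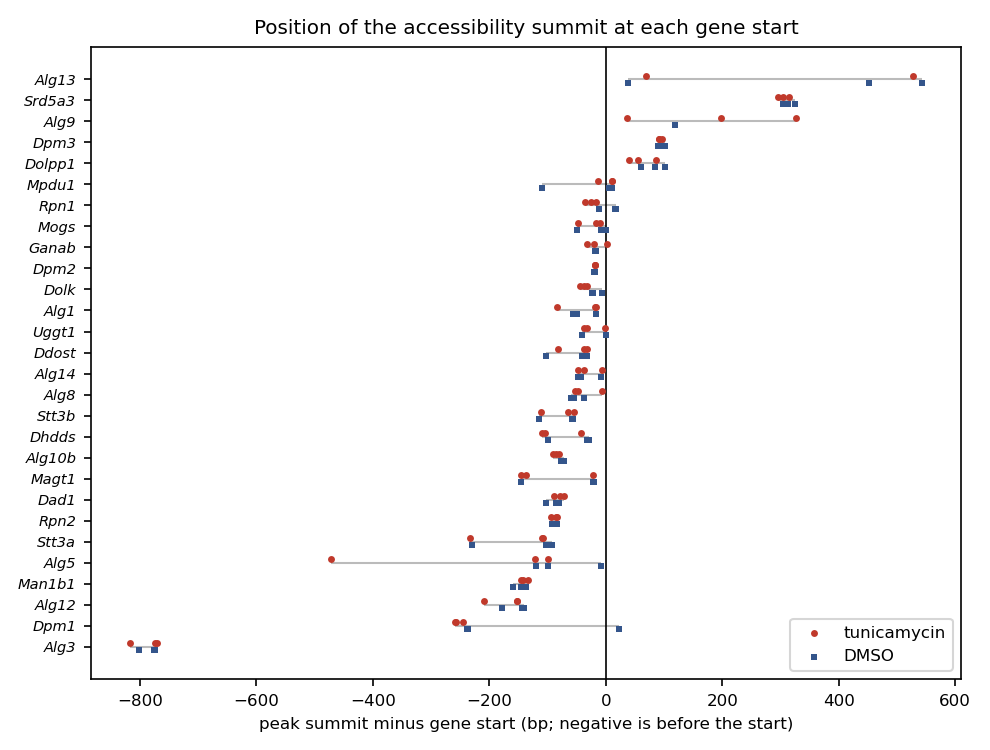
Distance in bp from each gene's tabulated start to the summit of its most accessible start region (x axis, negative before the start), with 1 point per library, circles for tunicamycin and squares for DMSO, and a line over the range of the libraries. Most summits cluster just before the start in both groups, while Alg3 (median -774.5 bp) and Srd5a3 (median 308.5 bp) lie apart and Alg13 and Alg9 scatter.

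Away from the starts the regions were called less evenly. Of the 187 regions, 91 (48.7%) were called in all 6 libraries, against 25.1% of all 82993 regions, and 28 (15.0%) in 1 library, against 32.4%. Regions at the genes' own starts, or at either end of the 5 genes without a tabulated strand, made up much of this. Of these, 32 of 38 (84.2%) were called in all 6 libraries, against 61.8% of all regions at a tabulated gene start. The number was 7 of 33 inside the genes and 52 of 116 outside them. Of these 2 classes together, 24 of 41 (58.5%) at the tabulated start of another gene and 35 of 108 (32.4%) at no tabulated start were called in all 6. The shares over all regions are 61.8% at a tabulated start and 18.4% at none. Starts were tabulated for 17491 of 21883 protein-coding genes, so a region counted at none can still lie at a gene start. Each library called a larger share of these regions than of all regions, 71.7%, 82.4% and 74.3% against 52.6%, 67.2% and 55.7% for the tunicamycin libraries, and 86.1%, 65.8% and 54.5% against 73.6%, 44.5% and 33.3% for the DMSO libraries. The share followed the number of peaks in the list, from DMSO 3 at the low end to DMSO 1 at the high end.

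**Figure D3:**
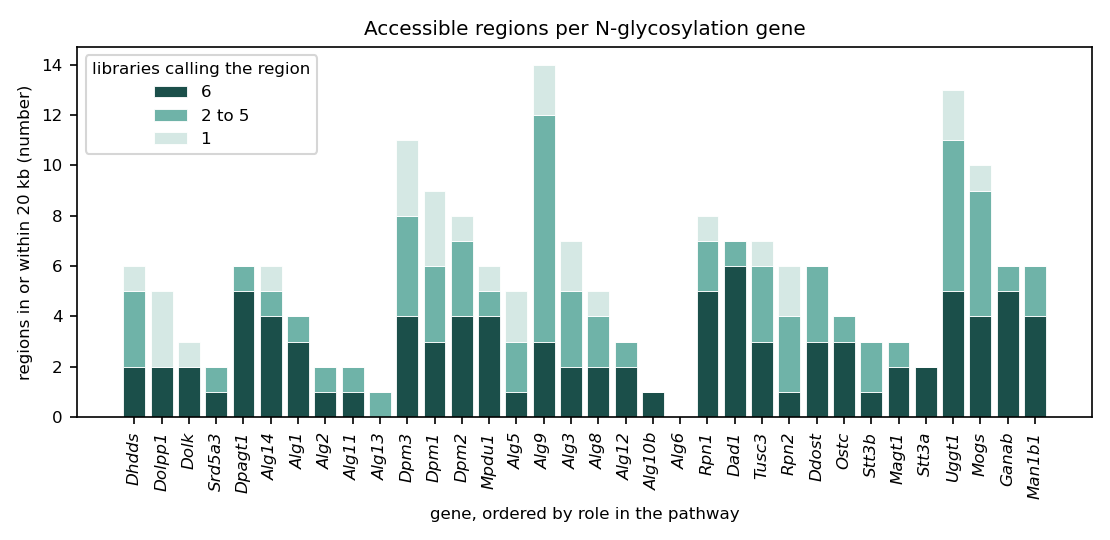
Number of accessible regions in or within 20 kb of each gene (y axis), ordered by role along the x axis, with bars divided by how many of the 6 libraries called the region. Alg9 has 14 regions and Uggt1 13, the median gene has 6, and Alg6 has 0.

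No region near these genes was called in every library of one group and in no library of the other. The number called in 3 of 3 tunicamycin and 0 of 3 DMSO libraries was 0 of 187, against 0.683% of all regions, and the number called in 0 of 3 tunicamycin and 3 of 3 DMSO libraries was 0 of 187, against 0.0976%. Counts of 0 among 187 regions are near those background shares. In a sorted population, a change in which cells were present and a change in accessibility per cell cannot be told apart in any comparison of the groups. The nearest pattern was that of 7 regions called in all tunicamycin libraries and 1 DMSO library, which for 6 of them was DMSO 1, the longest list. They were 3.74% of the 187 regions, against 4.76% of all regions, so they are no more frequent here than elsewhere. These 6 lay at the starts of Alg9 and Alg3, inside Uggt1 and outside Uggt1, Rpn2 and Mogs. The inside Uggt1 region, chr1:36162686-36163076, had a fold of 5.10, 5.04 and 6.38 after tunicamycin and 9.47 in DMSO 1, above every tunicamycin library. The Rpn2 region, chr2:157259755-157260193, had 4.44, 7.79 and 4.94 after tunicamycin and 8.39 in DMSO 1, again the highest of those that called it. The region near Alg2, chr4:47493565-47494322, 19.2 kb out, had 4.81, 5.83 and 5.87 after tunicamycin and 3.85 in DMSO 3, and here the DMSO value was the lowest. Without DMSO 1 the count called after tunicamycin alone was 6, against 5.77% of all regions in that setting.

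To compare levels, the regions called in all 6 libraries (20810 in all, 91 of them near these genes) were ranked by fold enrichment within each library, which gives a shared percentile on 1 common set of regions. The tunicamycin minus DMSO difference of the group means had a median of -1.45 percentile points over the 91 regions, with 38 positive and 53 negative. Over all 20810 the median was -0.304, with 10070 positive (48.4%) and 10733 negative. In the 91 regions the replicates' SD had a median of 6.82 points after tunicamycin and 9.50 after DMSO. That spread belongs to single regions and not to the median over them. At the most accessible start region of each of the 31 genes the median difference was 0.827 points, with 18 positive and 13 negative. The extremes were Alg1 at 10.8 points (79.9 ± 7.91 after tunicamycin and 69.1 ± 4.77 after DMSO, SD, n = 3 each) and Uggt1 at -14.4 points (62.4 ± 17.5 after tunicamycin and 76.8 ± 13.2 after DMSO, SD, n = 3 each). At both, the values of the groups overlapped. Over the 52 regions outside the genes the median difference was -4.30 points, with 15 positive and 37 negative, and over the 7 inside it was 1.04 points. Several of the 52 lie close together or at the starts of other genes, so they are not independent. Their lean to negative values was not tested.

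**Figure D4:**
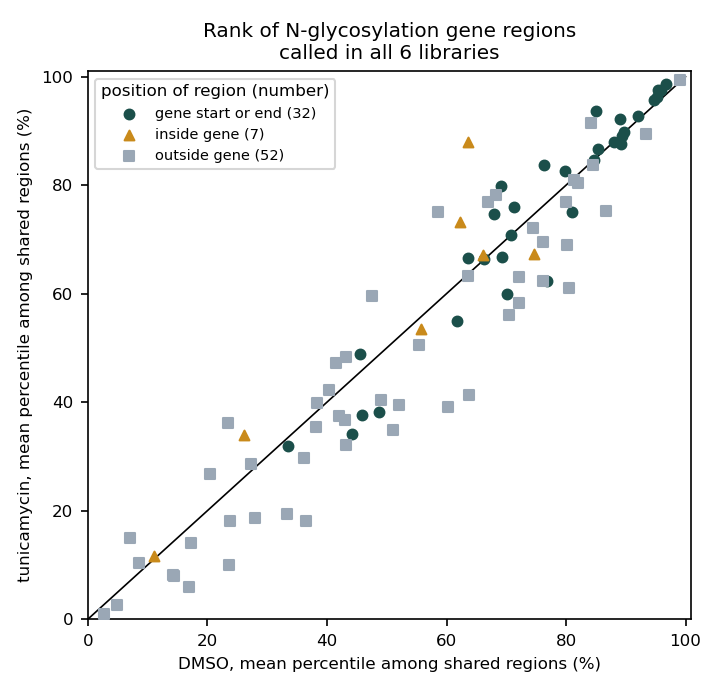
Mean shared percentile after tunicamycin (y axis, %) against that after DMSO (x axis, %) for the 91 regions called in all 6 libraries, with 1 point per region, symbols by position and the line of equal rank. Regions at gene starts lie on both sides of the line (median difference 0.477 points over 32, range -14.4 to 10.8). Regions outside the genes lie more often below it (37 of 52, against 10733 of all 20810 shared regions).

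No region near these genes passed the test run across all shared regions. Limma on normal scores of the ranks (each rank replaced by the matching value of a standard normal distribution), with Benjamini-Hochberg adjustment over 20810 regions, called 0 regions higher and 0 lower at an adjusted p of 0.05, which is 0% of all regions in each direction. Among the 91 regions the smallest adjusted p by limma was 0.996, and 1 had an unadjusted p under 0.05, against 905 (4.35%) of all regions. The limma 95% interval of a difference reached a median of 0.69 normal-score units to either side of its estimate. For Dpagt1 the limma difference was -0.10 (95% interval -0.84 to 0.64) at the region inside its lower-numbered end and -0.10 (95% interval -0.85 to 0.65) at the other end.

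In 5 of the 91 regions the values of the groups did not overlap, 1 with tunicamycin higher, against 4.66% of all shared regions, and 4 with tunicamycin lower, against 4.55%. Both counts are near or below these shares, and with 3 libraries against 3 the two-sided exact permutation test gives p = 0.10 for each, the smallest it allows. The region higher after tunicamycin lay inside Tusc3 at chr8:39020300-39020853, with shared percentiles of 83.5, 89.8 and 90.8 after tunicamycin and 78.1, 75.7 and 36.9 after DMSO. DMSO 3 lay far below the other DMSO libraries, and without it the difference of 24.5 points became 8.78. The limma difference was 0.81 normal-score units (SE 0.34, unadjusted p = 0.0316, adjusted p = 0.996). A second Tusc3 region, at the gene end chr8:39005666-39006566, went the other way, with 61.4, 54.4 and 64.0 after tunicamycin and 74.8, 66.1 and 69.6 after DMSO, a difference of -10.3 points. The values inside and at the end of the same gene thus differed in opposite directions.

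Lower tunicamycin values were also found outside the genes, near Dpm3 and Ddost among others. The region 5.23 kb from Dpm3, chr3:89251152-89251831, overlapped no annotated protein-coding gene. It had 41.7, 35.8 and 40.1 after tunicamycin and 63.7, 57.0 and 60.1 after DMSO. The difference was -21.1 points, with close replicates in both groups. The region 12.8 kb from Ddost, chr4:138325412-138326479, lay at the start of Pink1, a mitochondrial kinase gene, and had 50.8, 71.2 and 61.1 after tunicamycin and 74.6, 73.0 and 94.1 after DMSO. Its difference of -19.5 points became -10.3 without DMSO 3. Each of these lies within 20 kb of its gene, but no measurement here links it to that gene. Ranked within each library's own whole list instead, 0 regions separated with tunicamycin lower and 3 (3.30%) with it higher. The shares over all shared regions on that scale were 1.59% and 7.42%, so neither count stands above its share. Without DMSO 1, 31 of the 91 regions (34.1%) separated with tunicamycin lower, against 16.3% of all shared regions in that setting, and 5 (5.49%) with tunicamycin higher, against 12.4%.

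**Figure D5:**
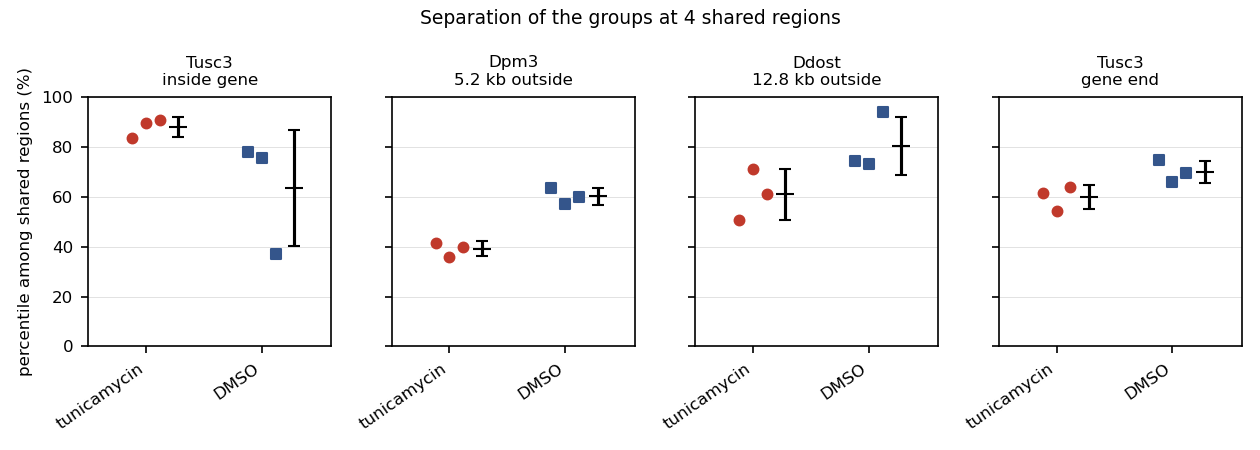
Shared percentile (y axis, %) of 4 regions whose groups did not overlap, with 1 point per library, tunicamycin left of DMSO in each panel, and bars for the mean and SD of 3 libraries. The region inside Tusc3 is higher after tunicamycin, with 1 DMSO library at 36.9, and the other 3 are lower after tunicamycin.

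Genes around the pathway were mostly accessible too. Of 51 further genes in 6 lists chosen by role, 44 (86.3%) had a start called in all 6 libraries, against 46.4% of all protein-coding genes. These were 10 of 12 for sugar nucleotide supply, 2 of 2 for the lipid carrier (with Nus1, the partner of Dhdds), 1 of 2 for further oligosaccharyltransferase subunits, 12 of 13 for lectin quality control, 16 of 19 for Golgi processing and 3 of 3 for deglycosylation. The exceptions were Gfpt2, Mpi, Krtcap2, Uggt2, Man2a2, Mgat3 and St6gal1, each called in 1 to 5 libraries. Of their 46 start regions called in all 6 libraries, 1 separated with tunicamycin higher and 2 with it lower, against 4.66% and 4.55% of all shared regions, so neither count stands above those shares. Nus1 had shared percentiles of 90.0, 97.3 and 79.7 after tunicamycin and 79.7, 68.3 and 74.5 after DMSO, a difference of 14.9 points. Pmm2, which makes mannose-1-phosphate, had 20.0, 35.1 and 32.3 after tunicamycin and 40.5, 53.1 and 43.3 after DMSO, a difference of -16.5 points. Man2c1, a cytosolic mannosidase, had 69.8, 54.7 and 63.5 after tunicamycin and 70.9, 81.2 and 72.9 after DMSO, a difference of -12.4 points. With p = 0.10 in the two-sided exact permutation test, none of these 3 differences can pass 0.05 in this design.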

How the data were processed

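ATAC-seq peak lists of 6 libraries were used, with peaks called for each library separately. Bowtie2 2.2.9, MACS2, Picard, featureCounts and Trim Galore 0.4.4 stand in the submitters' processing notes, as does the build mm10, with no role for each. How reads were filtered or shifted, and at which threshold peaks were called, is not given in the sources used here. For every peak the authors deposited the interval, the summit, a display score (not used), the fold over background (a ratio), and −log10 values of p and q. The largest deposited q-value per list was 0.0482 to 0.04999. These are the authors' values for each peak and were used only to rank or filter within a list.

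Peaks of the 19 autosomes and of chromosomes X and Y were merged where they overlapped by 1 bp, and the 109 to 138 peaks of a library that lay elsewhere were not used. A region takes the highest fold of its peaks. Gene spans, names and promoters came from RefSeq tables of GRCm38.p6, the assembly that mm10 denotes. Strand was known for 29 of the 34 genes, and exons and introns were not distinguished. The 34 genes, the role groups, the 6 further lists and the markers were chosen with earlier results of these data known. Values in every library were given for Dpagt1, for genes without a start called in all 6 libraries and for up to 8 separated regions of largest difference (5 separated, of which 1, not that of smallest difference, is not reported here), and other genes by role. Alg2, Alg12, Dhdds, Stt3a, Stt3b, Srd5a3, Dpm2, Nus1, Pmm2 and Man2c1, the Uggt1 start and the regions called in 3 tunicamycin libraries and 1 DMSO library were described further after their values were seen.

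Limma 3.58.1 (R 4.3.3) was tested on simulated data. Same-numbered libraries did not deviate together (r = -0.085, -0.014 and 0.030 over 20810 regions), so replicate numbers were not treated as pairs. Alternatives were a q-value of at most 1e-05, lists of 28501 peaks each, calls that cover 50% of a region, other distances and windows, other rank scales, and each library left out. Python 3.11.15, pandas 2.3.3, SciPy 1.17.1 and bedtools 2.31.1 were used.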

Additional observations from a re-analysis of the deposited data

How the results depend on the processing

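The counts of regions depend on the distance chosen: 93 regions lay within 5 kb of the 34 genes and 67 inside them, of which 52 and 37 were called in all 6 libraries. The number called after tunicamycin alone was 1 of 171 with q-values of at most 1e-05 (near Alg2), against 0.722% of all regions. It was 1 of 141 with lists of equal length (near Alg12), against 0.790%. With a library left out it was 0 to 6, with 6 of 179 without DMSO 1 (against 5.77%) and 3 of 183 without tunicamycin 1 (against 2.23%). It was 1 of 184 without tunicamycin 3 (against 1.54%) and 1 of 186 without DMSO 3 (against 0.821%). The number called after DMSO alone was 0 to 1 with a library left out, the 1 of 186 without DMSO 3 (against 0.929%). Regions that separated with tunicamycin higher numbered 3 when ranked by q (3.30%, against 5.48% of all shared regions). They numbered 3 by percentile in the whole list (3.30%, against 7.42%) and 5 to 10 with a library left out (5.38% to 9.62%, against 8.50% to 12.4%). Those with tunicamycin lower numbered 0 by percentile in the whole list, against 1.59%, and 5 to 31 with a library left out. These were 31 without DMSO 1 (34.1%, against 16.3%) and 11 without DMSO 3 (10.6%, against 9.46%). Without tunicamycin 3 they were 11 (11.8%, against 7.97%), and without tunicamycin 1 they were 9 (9.68%, against 8.71%). With 3 libraries against 2, groups separate more often, in up to 12.4% and 16.3% of all shared regions. Starts called in all libraries numbered 24 with 50% cover, 28 in windows of 250 bases and 31 to 32 with a library left out. The 5 separated regions kept their sign in every alternative run. Leaving out a library could hardly change it, because these regions were selected for groups that do not overlap. Limma called 0 regions in every alternative, and with the replicate number as a block it called 0 of 20810, with 917 at an unadjusted p under 0.05. Read depth is unknown, so no limit of detection for a single region can be given, and the short DMSO 3 list limits which regions count as shared.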

Other observations

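Within 20 kb of the 51 further genes of the pathway lay 396 regions, of which 4 were called in 3 of 3 tunicamycin and 0 of 3 DMSO libraries (0.683% of all regions were) and 0 the other way round. They lay near Uggt2, a paralogue of Uggt1 (chr14:119052404-119052707), Mgat1 (chr11:49271235-49271592) and Mgat4a (chr1:37477956-37478237), which add branches to N-glycans in the Golgi, and B4galt1 (chr4:40833470-40834041), a galactosyltransferase. Among the 34 genes, the pattern of 2 libraries of one group and 0 of the other occurred near Dpm2, Dpm1, Alg9 and Stt3b for tunicamycin (2.14% of their regions, against 2.68% of all regions) and near Alg11 for DMSO (0.535% against 1.44%), so neither is more frequent than over all regions. The Alg11 region, chr8:22048159-22048436, 12.3 kb from the gene over Atp7b, had a fold of 5.04 and 5.98 in DMSO 1 and 2 and no call after tunicamycin.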
